A study of Rattus norvegicus with 36 samples.

Results

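Dgkh encodes diacylglycerol kinase eta, and its messenger RNA was followed across saline and cocaine treatment in the nucleus accumbens of the rat. The gene is row ENSRNOG00000010065 of the deposited counts, 1 of 31546 Ensembl genes, and 1 of the 15641 genes that passed the filter on low counts. It was chosen because its level differed between the cocaine groups of these same pools, so its own levels and differences are a description and carry no test. Male 8-week-old Sprague-Dawley rats were injected intraperitoneally 3 times a day over 5 days. The Sal–Sal animals had 15 injections of saline, Coc–Coc rats had 15 injections of cocaine (20 mg/kg each), and Sal–Coc rats switched from saline to 3 injections of cocaine on the final day. The labels give 13 saline injections for Sal–Coc, whereas the study's methods imply 12. The tissue was taken 24 h after the last injection, and 3 pools of 2 rats stood for each group, each sequenced as 4 technical replicates. The labels name 1 rat per library where the methods name a pool of 2. The spread within a group is that between its 3 pools, after the technical replicates were summed.

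Diacylglycerol is a membrane lipid released when phospholipase C cleaves phosphatidylinositol bisphosphate downstream of Gq-coupled receptors. It activates protein kinases C and D, Ras guanine exchange factors and other effectors, and diacylglycerol kinases end this signal by converting it into phosphatidic acid, which is itself a signal and a step in the resynthesis of phosphoinositides. Diacylglycerol kinase eta belongs to the type II kinases, together with delta and kappa, and carries a pleckstrin homology domain. It is known to promote Raf and ERK signaling, and variants of the human gene have been studied in bipolar disorder. Metabotropic glutamate and dopamine signals on the medium spiny neurons of the nucleus accumbens use these pathways.

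In RefSeq, Dgkh lies on rat chromosome 15 between Akap11 and Vwa8. No other RefSeq gene overlapped it, and 10 RefSeq transcripts are listed for it. The counts were made per gene and do not separate these transcripts. The 250 bases before its RefSeq start (GRCr8, chr15:60559778-60560027 on the minus strand) are shown first because they lie directly before this annotated start. Where transcription begins in this tissue was not measured. The sequences at the same distance from the start of Vcan (chr2:22595956-22596205 on the minus strand), Grm5 (chr1:150733503-150733752 on the plus strand) and Ago3 (chr5:143998738-143998987 on the minus strand) follow. Among genes with a symbol here and an entry in the RefSeq promoter table, these 3 have the profile over the pools most like that of Dgkh. Genes without a symbol could not be looked up. All are written 5′ to 3′ along the gene, and capitals mark matches to the CRE half-site TGACG or its full form TGACGTCA, the AP-1 site TGANTCA and the E-box CACGTG on either strand.
Dgkh: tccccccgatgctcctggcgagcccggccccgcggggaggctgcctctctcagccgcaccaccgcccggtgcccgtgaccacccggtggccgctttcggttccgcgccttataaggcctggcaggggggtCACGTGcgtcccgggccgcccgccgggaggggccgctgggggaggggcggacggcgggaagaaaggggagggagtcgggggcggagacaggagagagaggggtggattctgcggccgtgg
Vcan: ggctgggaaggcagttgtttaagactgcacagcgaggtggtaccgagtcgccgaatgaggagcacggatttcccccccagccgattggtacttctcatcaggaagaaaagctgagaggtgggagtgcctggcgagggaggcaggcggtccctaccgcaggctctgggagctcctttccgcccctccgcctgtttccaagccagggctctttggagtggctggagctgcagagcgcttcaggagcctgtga
Grm5: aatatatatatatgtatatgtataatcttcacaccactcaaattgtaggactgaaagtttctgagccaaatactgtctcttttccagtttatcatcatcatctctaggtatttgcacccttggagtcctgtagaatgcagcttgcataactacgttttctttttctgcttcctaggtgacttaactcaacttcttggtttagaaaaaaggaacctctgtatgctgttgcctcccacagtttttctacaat
Ago3: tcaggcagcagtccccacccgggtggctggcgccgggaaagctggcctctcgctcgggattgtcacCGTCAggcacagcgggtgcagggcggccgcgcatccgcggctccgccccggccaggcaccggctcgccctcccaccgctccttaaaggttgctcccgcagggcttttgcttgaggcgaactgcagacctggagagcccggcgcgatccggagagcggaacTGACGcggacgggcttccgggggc
The Dgkh window held 1 E-box, beginning at position -120 from the start. An E-box was found in 5.79% of 27457 RefSeq windows of this length. None of the other 3 windows held one. The Dgkh window held 4 GC boxes (GGGCGG on either strand), against 1 for Vcan and 2 for Ago3, and none was found for Grm5. At least 1 was present in 32.4% of all windows, and the share with 4 was not counted. No CRE half-site, full CRE, AP-1 site or TATAAA was found in the Dgkh window, where the shares of all windows with a match were 19.0%, 1.70%, 6.36% and 13.1%. The half-site is contained in the full CRE, so these shares overlap. The Ago3 window held 2 CRE half-sites. Bases G and C made up 75.6% of the Dgkh window, 61.6% for Vcan, 36.4% for Grm5 and 72.0% for Ago3, with a median of 52.0% over all windows, and 3.17% of all windows were at or above Dgkh. A match is a description of the letters and shows no binding.

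Dgkh was low in the rats that met cocaine on the last day only and stood at the saline level in the rats that received it for all 5 days. Expression is given in CPM, the count of a gene scaled by the library size and TMM factor of its pool. In the Sal–Sal pools the level was 43.8, 45.1 and 41.3 CPM. In the Sal–Coc pools it was 13.1, 15.4 and 20.2 CPM. In the Coc–Coc pools it was 39.9, 52.5 and 38.5 CPM. All 3 Sal–Coc pools lay below all 6 other pools, while the Sal–Sal pools lay inside the range of the Coc–Coc pools. In bulk tissue, fewer cells of a type and less RNA per cell cannot be told apart.

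**Figure D1:**
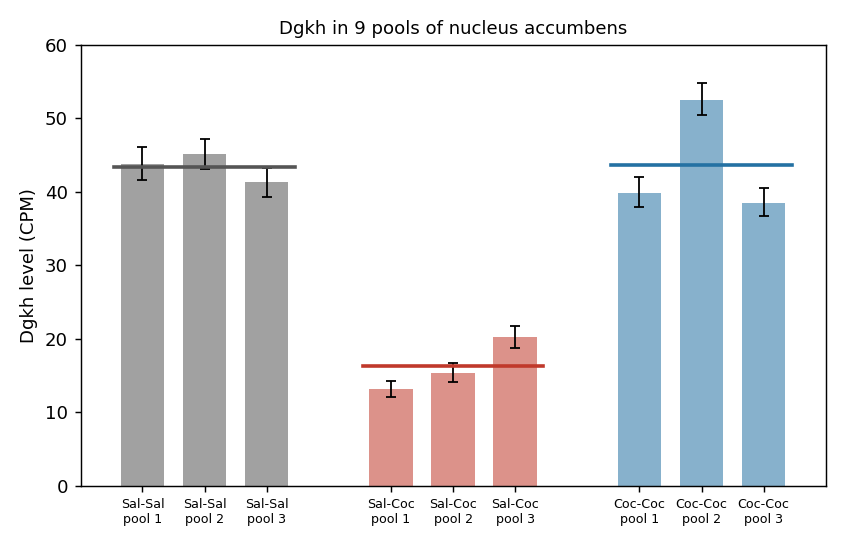
Dgkh level in CPM (y axis) in each of the 9 pools (x axis), with bars for pools, whiskers for the 95% exact Poisson interval of the count and horizontal lines for the group means. The 3 Sal–Coc pools lie between 13.1 and 20.2 CPM, and the other 6 pools between 38.5 and 52.5 CPM.

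The group means were 43.4 ± 1.958 CPM (n = 3, SD) in Sal–Sal, against 16.2 ± 3.65 in Sal–Coc, with 43.6 ± 7.72 for Coc–Coc. The mean of Sal–Coc was 37.4% of the Sal–Sal mean. The highest Sal–Coc pool was still exceeded 2.04-fold by the lowest Sal–Sal pool and 1.902-fold by the lowest Coc–Coc pool. Ordered by their means, Coc–Coc and Sal–Sal were neighbours that did not differ beyond their spread. The median of the Coc–Coc pools, 39.9 CPM, was below that of the Sal–Sal pools, 43.8 CPM, and Coc–Coc pool 2 was the highest of all pools.

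The model fitted across all genes (edgeR) gave a log2 difference of -1.42 (standard error 0.16) for Sal–Coc against Sal–Sal and of 1.43 (standard error 0.16) for Coc–Coc against Sal–Coc. For Coc–Coc against Sal–Sal it was 0.01 (standard error 0.16), and the 95% interval from its standard error ran from -0.30 to 0.32. This interval used a normal quantile, which makes it narrow for so few pools. The comparisons share pools in pairs, and the first and second of these values rest on the same Sal–Coc pools. The median log2 difference over all tested genes was -0.01 in each of the 3 comparisons.

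Among all 15641 tested genes, 104 had a log2 difference at or below that of Dgkh in Sal–Coc against Sal–Sal, and 34 had one at or above it in Coc–Coc against Sal–Coc, Dgkh included in both counts. The distributions over all genes show Dgkh in the lower tail of the former comparison and the upper tail of the latter. In Coc–Coc against Sal–Sal it lay in the middle, with 8217 genes at or below it.

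**Figure D2:**
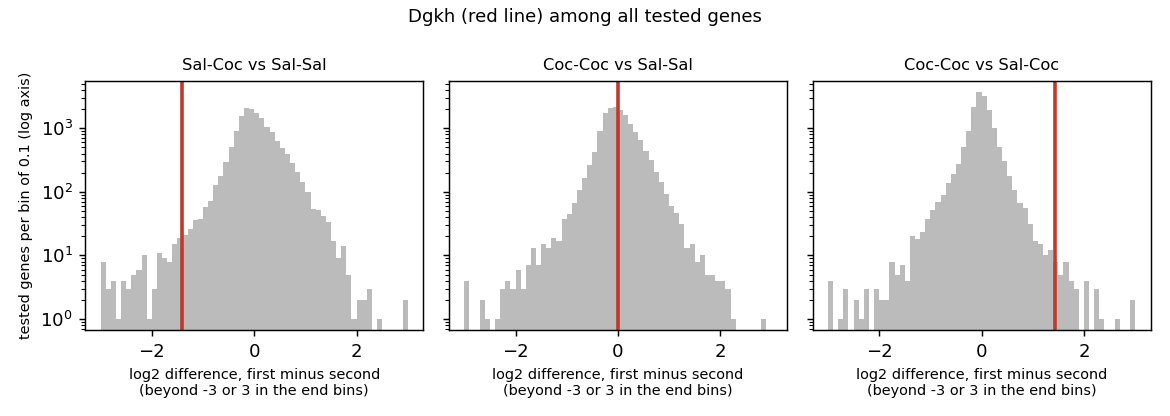
Number of tested genes (y axis, log scale) by log2 difference (x axis, bins of 0.1) in the 3 comparisons, with a red line at Dgkh. The line stands at -1.42, 0.01 and 1.43 from left to right.

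Dgkh had no overlap between the pools in Sal–Coc against Sal–Sal, as for 36.1% of all tested genes, nor in Coc–Coc against Sal–Coc, as for 17.2%. All Sal–Coc pools lay below all 6 other pools for 513 of 15641 genes (3.28%), and above all 6 for 688 (4.40%). A drop as deep as a log2 difference of 1 against both other groups was added to the former pattern for 17 genes (0.109%). Dgkh was 1 of these 17, and 9 of them have a symbol here. These percentages are given beside Dgkh as background, since the gene was chosen for this pattern.

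The counts behind these levels were 1484, 1825 and 1733 in the Sal–Sal pools. Sal–Coc pools had 559, 577 and 731 counts, and Coc–Coc pools had 1486, 2267 and 1596. The total of all genes was between 37035199 and 42449841 counts in Sal–Sal, then between 36372166 and 39480647 in Sal–Coc, with between 37787122 and 42417099 for Coc–Coc. Sal–Coc thus held the pool with the lowest total, and the part of depth in the result was not tested. The 95% exact Poisson interval of the lowest pool, Sal–Coc pool 1, ran from 12.04 to 14.2 CPM, and that of the highest Sal–Coc pool from 18.8 to 21.8 CPM. These intervals cover counting error only and did not meet, so the Sal–Coc pools differed among themselves by more than counting error.

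The technical replicates sort counting noise from differences between pools. Over the 4 technical replicates of each pool, the chi-square of the Dgkh counts per degree of freedom was 0.80 (27 degrees of freedom). Sal–Coc pool 1 had between 129 and 154 Dgkh counts per technical replicate, and Sal–Sal pool 1 between 364 and 385. The widest range was in Coc–Coc pool 3, between 372 and 454, where the chi-square per degree of freedom was 4.16 and technical replicate d was the high one. For pools within a group, with the library sizes scaled by TMM as for CPM, this value was 3.64 in Sal–Sal, against 31.9 in Sal–Coc, with 57.1 for Coc–Coc. With the unscaled totals it was 8.997, 21.7 and 68.4. The Sal–Sal value was above the 0.80 of the technical replicates over all pools on both scales. On the TMM scale it was below that of the technical replicates of Coc–Coc pool 3 alone, where the other pools had at most 0.76. The values of the cocaine groups were above that of Coc–Coc pool 3 on both scales. The coefficient of variation was 4.51% in Sal–Sal, against 22.5% in Sal–Coc, with 17.7% for Coc–Coc. The edgeR model estimated a biological coefficient of variation of 0.142 for Dgkh, against a median of 0.119 over all genes.

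The deposited tables hold identifiers without symbols, and the RefSeq table does not list Ensembl identifiers. Symbols could be joined only for genes that the study had called on these same libraries, by matching published ratios to the counts. The genes of the diacylglycerol pathway that follow were therefore selected for a difference in at least 1 comparison. Counts of members that passed the test are no independent evidence of a direction, and the members without a symbol were not analysed here. Of the 10 diacylglycerol kinases, 3 had a symbol (Dgkh, Dgka and Dgkz). So had 7 of 74 genes of the diacylglycerol pathway, 2 of 13 Gq proteins and Gq-coupled receptors and 0 of 14 genes of the ERK cascade. None of the 10 nearest protein-coding neighbours of Dgkh had one.

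The other named diacylglycerol kinases, Dgka and Dgkz, stood higher after cocaine, whereas Dgkh stood lower or level. Both were named because the study had called them, and the rest of the family was not analysed. Dgka encodes diacylglycerol kinase alpha, a calcium-regulated type I enzyme. Its level was 53.6, 60.9 and 68.8 CPM in the Sal–Sal pools. Sal–Coc pools had 91.4, 110 and 121 CPM, and Coc–Coc pools had 97.3, 91.7 and 101 CPM. Both cocaine groups lay above all Sal–Sal pools and overlapped each other. The log2 difference was 0.82 (standard error 0.12) in Sal–Coc against Sal–Sal, where the quasi-likelihood test of edgeR gave an adjusted p of 0.00458 (Benjamini-Hochberg, over all genes). It was 0.66 (standard error 0.12) in Coc–Coc against Sal–Sal, with an adjusted p of 0.0172 in edgeR, and was not past 0.05 in Coc–Coc against Sal–Coc (-0.15, adjusted p = 0.689 in edgeR).

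Dgkz encodes diacylglycerol kinase zeta, a type IV enzyme with ankyrin repeats. It was at 332, 337 and 283 CPM across the Sal–Sal pools, against 398, 442 and 477 CPM across the Sal–Coc pools and 409, 360 and 413 CPM for Coc–Coc. Its pools did not overlap between either cocaine group and Sal–Sal, as for 36.1% of all genes with Sal–Coc and 36.7% with Coc–Coc. The log2 difference was 0.47 (standard error 0.10, adjusted p = 0.0172 in edgeR) in Sal–Coc against Sal–Sal. Between Coc–Coc and Sal–Sal it was 0.31, and the adjusted p of 0.0809 in edgeR was not under 0.05. Between Coc–Coc and Sal–Coc it was -0.16 (adjusted p = 0.639 in edgeR).

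Both kinases rose in Sal–Coc against Sal–Sal, where 16.4% of all tested genes were called (10.6% higher and 5.86% lower). In Coc–Coc against Sal–Sal, Dgka was called, where 10.9% of all genes were called (7.13% higher and 3.75% lower) and 30.1% had an unadjusted p under 0.05. In Coc–Coc against Sal–Coc, 0 of 15641 genes were called by edgeR's test (0%), with 1453 at an unadjusted p under 0.05 (9.29%). Neither kinase had an unadjusted p under 0.05 there, and DESeq2 with default settings called neither.

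**Figure D3:**
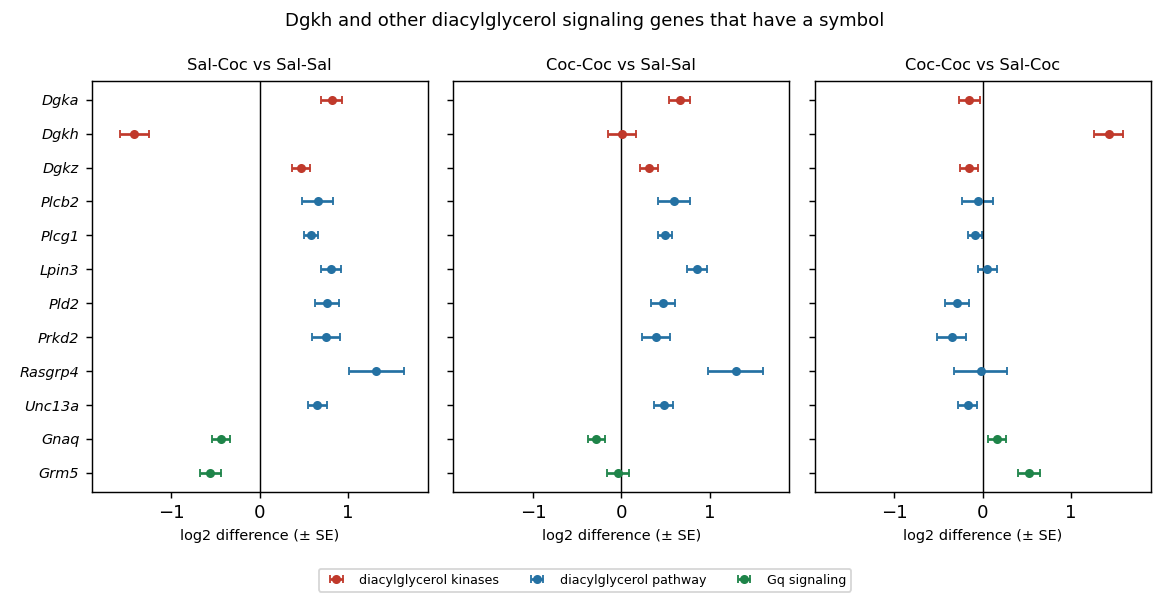
Log2 differences (x axis, ± standard error) of Dgkh, the other named diacylglycerol kinases, the 7 named genes of the diacylglycerol pathway and 2 genes of Gq signaling (y axis) in the 3 comparisons. Dgkh stands at -1.42, 0.01 and 1.43, while the 7 pathway genes are all above 0 in the comparisons with Sal–Sal.

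All 7 named genes that make, convert or bind diacylglycerol were higher in Sal–Coc and in Coc–Coc than in Sal–Sal. The test called all 7 in the former comparison and 4 in the latter, where 10.6% and 7.13% of all tested genes were called higher. The former count was 6 with only the 6 pools compared, with the replicate block or with technical replicate a alone. Their median log2 difference was 0.75 in the former and 0.49 in the latter, against -0.01 over all genes in each. These 7 had a symbol because the study had called them, so all genes are not a like background. Among the study's called genes with a RefSeq span, the medians were 0.56 and 0.47 for genes under 100 kb. They were 0.19 and 0.28 for genes of at least 100 kb. In Coc–Coc against Sal–Coc the median of the 7 was -0.09 and none of the 7 had an unadjusted p under 0.05 in edgeR's test. DESeq2 also called none of them there.

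Among the enzymes that release diacylglycerol, Plcg1 encodes phospholipase C gamma, which is activated by receptor tyrosine kinases. It was at 183 ± 12.1 CPM (n = 3, SD) in Sal–Sal, against 274 ± 4.74 in Sal–Coc, with 258 ± 18.2 for Coc–Coc. Its log2 differences from Sal–Sal were 0.58 and 0.49 (adjusted p = 0.00407 and 0.0161 in edgeR). Plcb2, a phospholipase C activated by G proteins, was low, between 2.74 and 3.36 CPM in the Sal–Sal pools. It was between 4.27 and 5.46 CPM in the Sal–Coc pools and between 3.76 and 5.45 in the Coc–Coc pools. The adjusted p for Plcb2 was 0.0355 in Sal–Coc against Sal–Sal and 0.0592 in Coc–Coc against Sal–Sal in edgeR. The former was not under 0.05 with only the 6 pools compared, the replicate block or technical replicate a alone (adjusted p = 0.0535, 0.0646 and 0.0789 in edgeR).

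On the phosphatidic acid side, Lpin3 encodes a lipin, a phosphatase that turns phosphatidic acid back into diacylglycerol. It was at 38.8 ± 4.78 CPM (n = 3, SD) in Sal–Sal, against 67.7 ± 9.02 in Sal–Coc, with 70.3 ± 1.26 for Coc–Coc. The log2 differences of Lpin3 from Sal–Sal were 0.80 and 0.86 (adjusted p = 0.00416 and 0.0161 in edgeR). Pld2 encodes a phospholipase D, which makes phosphatidic acid from phosphatidylcholine. It was at 39.5 ± 7.49, 67.2 ± 9.70 and 54.99 ± 1.05 CPM in the same order of groups, with an adjusted p of 0.00791 in Sal–Coc and 0.0522 in Coc–Coc against Sal–Sal in edgeR.

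Among the effectors, Prkd2 encodes protein kinase D2. Its level was 9.88 ± 2.34 CPM (n = 3, SD) in Sal–Sal, against 16.6 ± 1.64 in Sal–Coc, with 13.0 ± 0.99 for Coc–Coc and adjusted p-values of 0.0154 and 0.136 against Sal–Sal in edgeR. Unc13a, which encodes the synaptic vesicle priming protein Munc13-1, was at 155 ± 8.68, 243 ± 35.2 and 216 ± 16.8 CPM (adjusted p = 0.00619 and 0.0276 in edgeR). Rasgrp4, a Ras exchange factor, was scarce and ranged from 1.29 to 2.29 CPM in Sal–Sal, against from 4.15 to 5.12 in Sal–Coc, with from 2.84 to 6.60 for Coc–Coc. Its log2 differences from Sal–Sal were 1.32 and 1.30 (adjusted p = 0.0222 and 0.0329 in edgeR). The call in Coc–Coc was lost under the same 3 settings (adjusted p = 0.0569, 0.0609 and 0.0542 in edgeR).

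Of the Gq side, both named genes fell in Sal–Coc against Sal–Sal, where 5.86% of all tested genes were called lower. Both had a symbol because the study had called them, and the rest of the 13 listed genes were not analysed. Grm5 encodes the metabotropic glutamate receptor mGluR5, which couples to Gq. Its level was 238, 239 and 248 CPM across the Sal–Sal pools, against 140, 162 and 192 CPM across the Sal–Coc pools and 211, 269 and 229 CPM for Coc–Coc. All Sal–Coc pools lay below the other 6, and the Sal–Sal and Coc–Coc pools overlapped. The log2 difference of Grm5 was -0.56 (standard error 0.12, adjusted p = 0.0168 in edgeR) in Sal–Coc against Sal–Sal and -0.04 (adjusted p = 0.875 in edgeR) in Coc–Coc against Sal–Sal. Between Coc–Coc and Sal–Coc it was 0.52, with an adjusted p of 0.321 in edgeR, an unadjusted p of 0.00178 from the edgeR model and an adjusted p of 0.0154 from DESeq2. Gnaq, the alpha subunit of Gq, was at 55.2 ± 3.02 CPM (n = 3, SD) in Sal–Sal, against 40.7 ± 4.85 in Sal–Coc, with 45.4 ± 3.84 for Coc–Coc. Its log2 difference was -0.44 in Sal–Coc against Sal–Sal (adjusted p = 0.0192 in edgeR) and -0.28 in Coc–Coc against Sal–Sal (adjusted p = 0.0962 in edgeR).

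These calls rested on few pools. Without Sal–Coc pool 2 or without Sal–Sal pool 1, neither Grm5 nor Gnaq was past the threshold in Sal–Coc against Sal–Sal, and the number of the 7 pathway genes past it there was 4 and 5. Without Coc–Coc pool 3, no gene was past the threshold in Coc–Coc against Sal–Sal.

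Likeness to Dgkh was measured as the Pearson correlation of log2(CPM + 0.5) over the 9 pools, among the 13634 other genes with a mean of at least 1 CPM. The pools fall into 3 groups that the correlation does not separate, so it is a description of likeness. A correlation above 0.9 was found for 69 genes (0.506%), and the median was 0.02. Among genes with a symbol, the 8 most alike were Zbtb20, Ptbp3, Vcan, Grm5, Ago3, Zfp871, Kdm7a and Zfp704, with correlations from 0.98 to 0.95. The top 10 places held 2 further genes known here by identifier only, and ENSRNOG00000001108 had the highest correlation of all, 0.98. This gene fell much less than Dgkh did. Its Sal–Coc mean was 23.8 CPM, against a Sal–Sal mean of 27.6 CPM, while its Coc–Coc pools averaged 28.0 CPM. The named genes belong to the study's called genes by the way symbols were joined.

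Zbtb20, a zinc finger transcription repressor, was at 55.1, 56.7 and 57.5 CPM across the Sal–Sal pools, against 15.7, 15.8 and 24.2 across the Sal–Coc pools and 50.02, 56.5 and 36.4 for Coc–Coc. Ago3, an Argonaute protein of microRNA silencing, was at 24.8, 25.3 and 35.7 CPM, at 9.85, 10.3 and 12.3 CPM and at 25.96, 33.7 and 21.8 CPM in the same order. These 2 came nearest to Dgkh in depth among the 8, at 32.9% and 37.8% of the Sal–Sal mean in Sal–Coc, against 37.4% for Dgkh. The other 6 fell to between 63.5% and 70.3% and were between 95.1% and 105% of the Sal–Sal mean in Coc–Coc. They include Vcan, the matrix proteoglycan versican, Ptbp3, a splicing regulator, and Kdm7a, a histone demethylase.

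**Figure D4:**
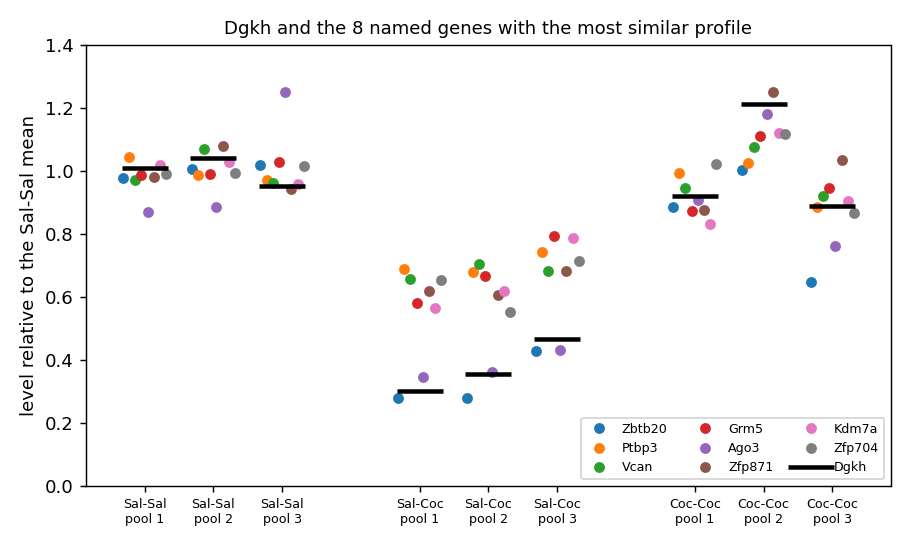
Level relative to the Sal–Sal mean (y axis) of Dgkh (black bars) and the 8 named genes with the most similar profile (coloured points) in each pool (x axis). Dgkh, Zbtb20 and Ago3 lie lowest in the 3 Sal–Coc pools, and the other 6 genes between them and the level of the other groups.

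Within groups, the small differences between pools also ran together for some of these genes. After each group mean was taken off, the correlation with Dgkh over the 9 pools was 0.96 for Kdm7a, 0.92 for Grm5 and 0.85 for Zbtb20, and 0.57 for Ago3. For each of the 8 genes except Vcan, as for Dgkh, the third Sal–Coc pool was the highest of its group. The second Coc–Coc pool was the highest of its own group for all 8, Vcan included. The 8 genes were picked by the correlation that contains these differences, and all genes of a pool share its library. At the opposite end, Ap3b2, a neuronal adaptor subunit of vesicle traffic, had a correlation of -0.95, Sema4g of -0.92 and Trpm4, a calcium-activated cation channel, of -0.89. Ap3b2 was at 137 ± 12.5 CPM (n = 3, SD) in Sal–Sal, against 183 ± 10.7 in Sal–Coc, with 144 ± 7.40 for Coc–Coc.

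The RefSeq span of Dgkh is 169 kb in GRCr8, and a span was found for 86.4% of the tested genes with a symbol. Among these called genes, 85 of 178 with a span of at least 100 kb (47.8%) were lower in Sal–Coc than in Sal–Sal, against 307 of 1122 shorter ones (27.4%). In Coc–Coc against Sal–Coc, 60 of the 178 long genes (33.7%) and 723 of the 1122 shorter ones (64.4%) were lower in Coc–Coc. The shares lower in Coc–Coc against Sal–Sal, where Dgkh had a log2 difference of 0.01, were 79 long genes (44.4%) and 307 shorter ones (27.4%). The part of gene length in the Dgkh result was not tested, since only 8.31% of all tested genes had a span.

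Markers of cell types could be read only where a symbol had been joined, which held for 5 of 70 marker genes. None of the 12 markers of striatal projection neurons had one, so the labelled tissue was not checked against its defining markers. Of 6 markers of vessel cells, Flt1, Pdgfrb and Vtn had a symbol. Their summed level was between 48.9 and 59.7 CPM in Sal–Sal, then between 78.7 and 82.6 in Sal–Coc, with between 63.8 and 84.6 for Coc–Coc. Pvalb, a marker of fast-spiking interneurons, was between 7.91 and 11.95 CPM in Sal–Sal, then between 10.2 and 12.1 in Sal–Coc, with between 6.23 and 7.24 for Coc–Coc. Hba-a2, a hemoglobin gene with near-identical copies and an uncertain count, was between 0.30 and 0.97 CPM in Sal–Sal, then between 0.54 and 1.25 in Sal–Coc, with between 1.53 and 3.55 for Coc–Coc. All 3 vessel markers with a symbol rose in Sal–Coc against Sal–Sal (adjusted p = 0.0433 for Flt1, 0.0105 for Pdgfrb and 0.0357 for Vtn in edgeR). In that comparison 10.6% of all tested genes were called higher. These 3 had a symbol because the study had called them, so their count is no independent evidence of a direction. Pdgfrb also passed the test in Coc–Coc against Sal–Sal (adjusted p = 0.0183 in edgeR), while the pools of Flt1 and Vtn overlapped there (adjusted p = 0.121 and 0.619 in edgeR). Vtn was between 13.2 and 13.8 CPM in the Sal–Coc pools and at most 11.6 CPM in the other 6, so it was high in the pools where Dgkh was low. All Sal–Coc pools lay above the other 6 for 4.40% of all tested genes. Flt1 and Pdgfrb did not share this pattern, since their Sal–Coc and Coc–Coc pools overlapped. Their means were 35.7 and 31.4 CPM in Sal–Coc, against 32.5 and 32.0 in Coc–Coc. The part of these markers in the Dgkh result was not tested.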

How the data were processed

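The values start from 36 deposited tables of raw counts per Ensembl gene, 4 technical replicates for each of 9 pools, which the authors had not normalized. According to the methods and labels, polyadenylated RNA was made into stranded TruSeq libraries and sequenced as 75-base single reads. The authors trimmed poly-N tails, dropped reads that were short or of low quality, aligned with STAR to Ensembl release 84, discarded multiply mapped reads and counted the rest by gene. The submitters' processing notes also name HTSeq 0.5.3 and bcl2fastq 2.17.1.14.

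Technical replicates were summed per pool. Samples were grouped by title. Differences were fitted with edgeR 4.0.16 in R 4.3.3 over all 9 pools (filterByExpr, TMM, quasi-likelihood test, Benjamini-Hochberg over 15641 genes, threshold 0.05), and DESeq2 1.42.0 was an alternative. The study's own test, DESeq, was not installed. The fit was also run on simulated counts with known changes in Coc–Coc, and the outcome is not given here. P-values weigh a difference between groups against the spread between pools within groups, for which the groups shared a common estimate. Pool numbers recur in the labels for different animals and did not pair the pools.

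Symbols were joined to identifiers where the ratio of group means of counts scaled by median-of-ratios equalled a published fold change to 6 digits and only 1 identifier met this, as it did for 1506 of 1539 symbols. The published fold changes served as keys only. Named genes were all diacylglycerol kinases with a symbol, pathway genes past the threshold with non-overlapping pools (at most 3 per role and comparison), the neighbours and the 8 most and 3 least Dgkh-like genes with a symbol. The gene, the lists and the tests were chosen with earlier results of these data known. Promoter windows and spans are from RefSeq GRCr8, another build than that of the counts, and were matched by symbol. Gene coordinates of the counts were not used here. A gene of the pathway list is not reported here and was left out of its counts. The chi-square between pools on the TMM scale was added after the data were seen.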

Additional observations from a re-analysis of the deposited data

How the results depend on the processing

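Dgkh kept its direction in the comparisons with Sal–Coc under every alternative run. With 1 pool left out its log2 difference ranged from -1.61 to -1.29 in Sal–Coc against Sal–Sal, -0.15 to 0.09 in Coc–Coc against Sal–Sal and 1.27 to 1.62 in Coc–Coc against Sal–Coc. The counts of calls moved more, and the cause was not tested. The counts of kinases here and below are of Dgka and Dgkz only, since Dgkh was not tested. Leaving out 1 pool gave 1 to 2, 0 to 1 and 0 diacylglycerol kinases called in the same order of comparisons, 4 to 7, 0 to 6 and 0 pathway genes, and 0 to 2, 0 and 0 Gq genes. Over all genes it gave 775 to 1706 higher and 207 to 1129 lower in Sal–Coc against Sal–Sal, 0 to 1332 and 0 to 799 in Coc–Coc against Sal–Sal, and 0 to 1 higher in Coc–Coc against Sal–Coc. In Coc–Coc against Sal–Sal no kinase was called without Sal–Sal pool 1, Coc–Coc pool 2 or Coc–Coc pool 3, and 2, 2 and 0 pathway genes. That number was 2 without Sal–Sal pool 2 and 3 without Sal–Coc pool 2. In Sal–Coc against Sal–Sal, 1 kinase was called without Sal–Coc pool 2 or pool 3, and 5 pathway genes without pool 3. Of the 8 most Dgkh-like genes, 4 to 8 were shared when 1 pool was left out, an alternative chosen after seeing the data. Of log2 differences, Grm5 in Coc–Coc against Sal–Sal ranged from -0.14 to 0.043, and in Coc–Coc against Sal–Coc Rasgrp4 ranged from -0.40 to 0.23, Plcb2 from -0.18 to 0.071 and Lpin3 from -0.053 to 0.11.

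DESeq2 gave 1469 lower genes in Sal–Coc against Sal–Sal, 1680 higher, 1132 lower and 2 kinases in Coc–Coc against Sal–Sal, and 84 higher, 61 lower and 1 Gq gene (Grm5) in Coc–Coc against Sal–Coc. Without a filter, 384 genes were lower in Coc–Coc against Sal–Sal and 5 higher in Coc–Coc against Sal–Coc. With only the 6 pools compared, 987 genes were higher and 458 lower in Sal–Coc against Sal–Sal. Technical replicate a alone gave 589 lower genes in Sal–Coc against Sal–Sal, 278 lower in Coc–Coc against Sal–Sal and 3 higher in Coc–Coc against Sal–Coc, where Rasgrp4 was at 0.051 on the log2 scale. With the replicate block, 309 genes were lower and 3 pathway genes were called in Coc–Coc against Sal–Sal. The pool numbers name different animals, and deviations of same-numbered pools had a mean correlation of -0.038, against 0.021 for other pairs. The neighbours of Dgkh, the ERK cascade, the tissue check and gene length over all tested genes were not run, since too few genes had a symbol.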
